A study of Mus musculus with 14 samples.

Results

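The 10 genes described here are the mouse MHC class II presentation genes: the classical alpha and beta chains H2-Aa, H2-Ab1, H2-Eb1 and H2-Eb2, the invariant chain Cd74, the H2-M chains H2-DMa, H2-DMb1 and H2-DMb2, and the H2-O chains H2-Oa and H2-Ob. They were taken by symbol from 3 tables of estimated counts with 54347 genes each, 1 table per experiment, and all 10 passed the low-count filter in each experiment. The 14 libraries were made from mRNA of whole lungs of C57BL/6 mice, and per the labels every mouse had been given extract of the fungus Alternaria alternata through the nose (4 daily doses of 2 mg, each in 40 µl), a model of allergic lung inflammation. No group without this extract was analysed here.

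In the chimera experiment, 2 libraries came from irradiated human JAK1 GOF recipients and 2 from irradiated WT recipients. JAK1 GOF stands for a gain-of-function form of the kinase JAK1, which signals for many cytokine receptors, the interferon gamma receptor among them. Both kinds of recipient were given 10000000 bone marrow cells from WT mice within a day of irradiation, so the marrow-derived cells of both groups were WT and the JAK1 allele was carried by the host's own cells, including any host immune cells that outlived irradiation. The promoter or locus that drives the human allele is not given in the sources used here, and the tables list mouse genes, so they do not check it. In the intrathecal experiment, 3 libraries came from WT mice given resiniferatoxin (RTX) into the spinal canal, 25 ng per mouse on each of 2 days, and 2 from WT mice given 10 µl of saline by the same route. In the subcutaneous experiment, 3 libraries came from WT mice given RTX under the skin at 30, 70 and 100 µg/kg on 3 successive days, and 2 from WT mice given 100 µl of saline. RTX is a potent agonist of the ion channel TRPV1 that destroys TRPV1-bearing sensory neurons; per the study's design the intrathecal route removed spinal visceral afferents, and the subcutaneous route removed vagal and spinal ones. Ages and sexes are not given in the labels.

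MHC class II molecules are alpha-beta pairs that carry peptides from endosomes to the cell surface, where CD4 T cells read them. The invariant chain Cd74 holds the empty pair and guides it to the endosome, H2-M (DM) exchanges the remnant of the invariant chain for peptide, and H2-O (DO) restrains H2-M. In the lung the family is made by dendritic cells, B cells, macrophages and alveolar type 2 cells, and H2-O is known mainly from B cells and some dendritic cells. The transactivator Ciita switches the whole family on, through an X box and a Y box in its promoters, and interferon gamma induces Ciita through JAK1 and JAK2. C57BL/6 mice carry the b haplotype of the MHC, which makes no E alpha chain, so their E beta chains have no partner of their own.

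In the GRCm38 annotation 9 of the 10 members lay on chromosome 17, between bases 34092340 and 34341412, a stretch of 249 kb, and each was annotated as protein-coding. From the low to the high coordinate the members on chromosome 17 were H2-Oa, H2-DMa, H2-DMb2, H2-DMb1, H2-Ob, H2-Ab1, H2-Aa, H2-Eb1 and H2-Eb2. Whether strand was used in counting is not given in the sources used here. H2-DMa shared 360 exonic bases with Brd2 on the opposite strand, and H2-Oa shared 321 with the antisense gene BC051537, so reads of these pairs may not be told apart. H2-DMb1 and H2-DMb2 are near copies: 31.4% of the 31-base words of H2-DMb1 and 36.6% of those of H2-DMb2 also occurred in other genes, 517 of them in each other, so counts of the 2 genes are uncertain against each other. In H2-Eb1 and H2-Eb2 the shared part was 1.06% and 1.58%, and in H2-Ob it was 0.

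The promoters of 8 of the 10 members were at hand in RefSeq (GRCm38.p6; 250 bases before to 50 after each start), and 5 are shown because the text below sets H2-Eb2 and H2-Ob beside their relatives H2-Eb1 and H2-Oa and beside the classical chain H2-Aa. Each stretch runs 5′ to 3′ on the gene's strand from base −150 to base −39 relative to the start, at chr17:34287862-34287973 (minus strand) for H2-Aa and, on the plus strand, at chr17:34305717-34305828 for H2-Eb1, chr17:34325525-34325636 for H2-Eb2, chr17:34092229-34092340 for H2-Oa and chr17:34238755-34238866 for H2-Ob. Capitals mark letters matching the Y box core CCAAT (read here as ATTGG), the X box, which takes in the capitals before the Y box in H2-Eb1, H2-Eb2 and H2-Oa, or the X2 box core TGACG, each searched on both strands.
H2-Aa: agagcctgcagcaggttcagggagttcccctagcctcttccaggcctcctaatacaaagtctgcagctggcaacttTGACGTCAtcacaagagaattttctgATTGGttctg
H2-Eb1: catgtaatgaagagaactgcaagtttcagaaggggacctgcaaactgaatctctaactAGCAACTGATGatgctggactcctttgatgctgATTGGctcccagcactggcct
H2-Eb2: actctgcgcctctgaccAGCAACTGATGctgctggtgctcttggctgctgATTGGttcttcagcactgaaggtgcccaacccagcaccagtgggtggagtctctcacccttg
H2-Oa: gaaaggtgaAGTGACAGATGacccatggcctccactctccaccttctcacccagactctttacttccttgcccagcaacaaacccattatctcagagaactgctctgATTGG
H2-Ob: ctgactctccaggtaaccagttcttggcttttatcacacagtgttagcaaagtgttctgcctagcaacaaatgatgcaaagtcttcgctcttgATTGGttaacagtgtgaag
The Y box core was in a window of 8 of 8 members and in 37.4% of all 32851 promoter windows. The X box letters were in 4 of 8 members (H2-DMb1, H2-Eb1, H2-Eb2 and H2-Oa) and in 0.968% of all windows. Only exact matches to 1 fixed X box pattern were counted. From the first base of the match to that of the Y box was 33 bases in H2-Eb1 and H2-Eb2, 34 in H2-DMb1 and 98 in H2-Oa. The H2-Oa match thus lay outside the spacing of the others and need not be the X box of that gene. In H2-Oa and H2-Ob a lowercase stretch shortly before the Y box begins with the same letters as the H2-Eb1 match. Such near matches were not counted, so a gene without a match may still have an X box. The X2 core was in 1 of 8, H2-Aa, where its matches on the 2 strands overlap, and in 20.8% of all windows. These matches are descriptions of letters, and no library here measured binding at them.

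Total counts per library were 18198872 to 24393000, and levels are given as CPM, the counts scaled to a library total of 1000000. Since no label ties replicates to separate mice, the spread that the p-values measure is the one between these libraries, which may be technical. Libraries stood apart in 2 transcripts that were nearly on or off: Rps3a2, a ribosomal protein gene copy, was over 2 CPM in WT recipient 1, both intrathecal saline libraries and subcutaneous RTX 2 and 3 (state A). Hmga2, a chromatin protein gene, was over 2 CPM in the other libraries (state B) except subcutaneous RTX 1 and subcutaneous saline 2, which had neither (state C). In the intrathecal experiment all RTX libraries were in state B and both saline libraries in state A, so state and treatment cannot be told apart there.

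The family as a whole took a larger part of the lung mRNA in the subcutaneous experiment than in the chimeras. Summed over the 10 members, the level was 2040 and 2801 CPM in JAK1 GOF recipients against 3433 and 4790 CPM in WT recipients, with no overlap. In the intrathecal experiment it was 3905 to 4156 CPM after RTX and 3769 to 4258 CPM after saline, so the RTX range lay inside the saline range. In the subcutaneous experiment it was 5696 to 6401 CPM after RTX and 4998 to 5456 CPM after saline, again with no overlap. Ordered by group, subcutaneous RTX was highest, then subcutaneous saline, then intrathecal RTX, intrathecal saline and WT recipients, whose ranges overlapped, and JAK1 GOF recipients were lowest; levels across experiments come from separate tables and were not tested against each other.

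Per kilobase of exon, Cd74 stood highest in all 14 libraries, at 560 to 1604 CPM per kb with a median of 1075. H2-Eb1 and H2-Ab1 followed, with medians of 314 and 309 CPM per kb, and H2-Eb1 was above H2-Ab1 in 12 of 14 libraries. H2-Aa came next at a median of 189 CPM per kb, below H2-Ab1 in all 14 libraries. This order depends on the exon lengths used, 3798 bases for H2-Aa and 2568 for H2-Ab1. In plain CPM H2-Aa was above H2-Ab1 in WT recipient 1, at 639 against 616 CPM. The H2-M chains were an order of magnitude lower than Cd74 or more: H2-DMb1 had a median of 72.4, H2-DMa 28.4 and H2-DMb2 18.7 CPM per kb. At the bottom H2-Ob (median 3.35 CPM per kb) and H2-Oa (2.99) changed places between libraries, H2-Ob being higher in 9 of 14. Their exon lengths were 5380 and 1407 bases, and in plain CPM H2-Ob was the higher, at means of 24.7 against 4.75 in WT recipients. H2-Eb2, the second E beta gene, was lowest in all 14 libraries, with a median of 1.05 CPM per kb. H2-Ea, the gene of the missing E alpha chain, had 0 counts in 12 libraries, 1 count in WT recipient 2 and 3 counts in subcutaneous saline 2, at or under the floor of 3 counts per library.

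**Figure D1:**
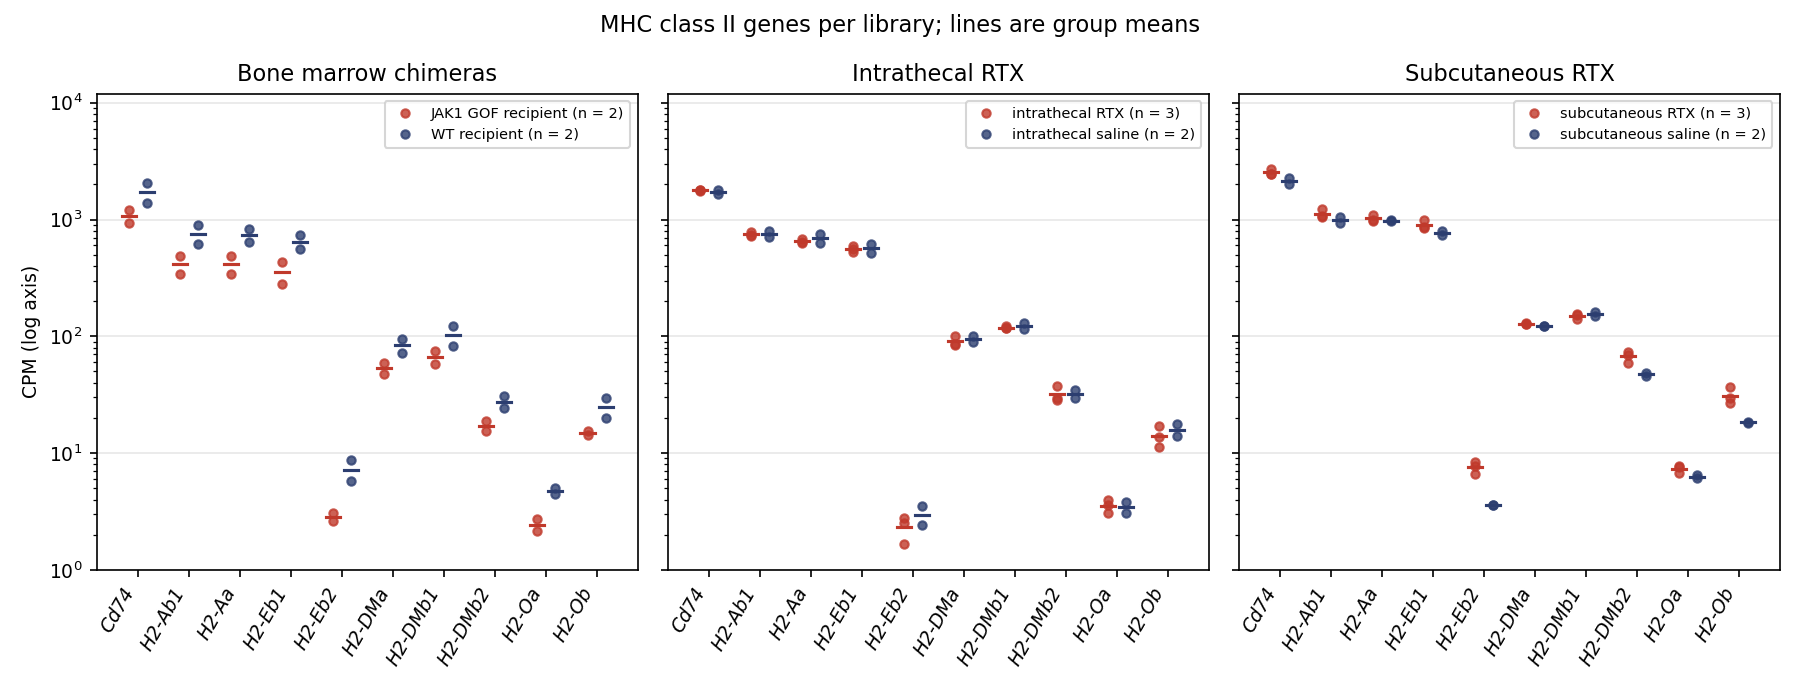
Level of each of the 10 MHC class II genes in every library (CPM, log axis), in JAK1 GOF and WT recipients (left), after intrathecal RTX or saline (middle) and after subcutaneous RTX or saline (right); points are libraries and short lines group means. JAK1 GOF points lie below WT points for every gene, the intrathecal groups overlap for every gene, and after subcutaneous RTX the points of H2-Eb2, H2-DMb2 and H2-Ob lie farthest above saline.

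The first comparison asks how lungs of JAK1 GOF recipients differed from those of WT recipients when the marrow was WT in both. All 10 members were lower in the JAK1 GOF libraries with no overlap between the groups, as were 23% of all 17298 genes tested. Log2 fold changes were −1.33 to −0.61 with a median of −0.77, beside a median of 0.00045 over all genes tested. None passed edgeR's quasi-likelihood test at an adjusted p of 0.05, which 0.717% of all genes passed (0.543% as lower); adjusted p-values of the members were 0.0529 to 0.301. All 10 had an unadjusted p under 0.05 on the lower side, as did 6.94% of all genes.

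Among the classical chains, H2-Aa, the A alpha chain, was at 491 and 339 CPM in JAK1 GOF libraries against 639 and 837 CPM in WT libraries. Its partner H2-Ab1 was at 489 and 339 CPM in JAK1 GOF libraries against 616 and 889 CPM in WT libraries. Log2 fold changes were −0.83 ± 0.21 for H2-Aa and −0.86 ± 0.23 for H2-Ab1, neither past the threshold (SE; adjusted p = 0.124 and 0.155, edgeR). H2-Eb1, the main E beta chain, was at 433 and 281 CPM in JAK1 GOF libraries against 559 and 738 CPM in WT libraries, a log2 fold change of −0.85 ± 0.23 (adjusted p = 0.151, edgeR). H2-Eb2 was at 3.05 and 2.64 CPM in JAK1 GOF libraries against 8.72 and 5.74 CPM in WT libraries. With −1.33 ± 0.27 it had the lowest log2 fold change and the smallest adjusted p of the 10 members (0.0529, edgeR), just short of the threshold. For each of H2-Aa, H2-Ab1 and H2-Eb1 WT recipient 2 was the highest library and JAK1 GOF recipient 2 the lowest, whereas H2-Eb2 was highest in WT recipient 1.

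Cd74, the invariant chain, lies apart from the others on chromosome 18 (GRCm38, 60803848 to 60812652). It averaged 1077 ± 193 CPM in JAK1 GOF libraries and 1722 ± 460 CPM in WT libraries (SD, n = 2 each). Single libraries held 1214 and 941 CPM in JAK1 GOF recipients against 1397 and 2047 CPM in WT recipients. The closest libraries of the 2 groups, JAK1 GOF recipient 1 and WT recipient 1, were nearer to each other than the 2 WT libraries were, and the log2 fold change was −0.67 ± 0.23 (adjusted p = 0.257, edgeR).

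Of the peptide-exchange genes, H2-DMa was at 59.2 and 47.5 CPM in JAK1 GOF libraries against 72.6 and 95.6 CPM in WT libraries. H2-DMb1 was at 75.1 and 58.5 CPM in JAK1 GOF libraries against 82.9 and 121 CPM in WT libraries. H2-DMb2 was at 18.9 and 15.5 CPM in JAK1 GOF libraries against 24.3 and 30.9 CPM in WT libraries. These 3 chains of H2-M stood at −0.65 ± 0.16, −0.61 ± 0.21 and −0.67 ± 0.17 on the log2 scale, nominally closer to zero than the classical chains, a difference that was not tested. Their adjusted p-values were 0.122, 0.301 and 0.11 (edgeR). H2-Oa, the alpha chain of the H2-M inhibitor, was at 2.73 and 2.14 CPM in JAK1 GOF libraries against 4.43 and 5.07 CPM in WT libraries. Its beta chain H2-Ob was at 15.6 and 14.2 CPM in JAK1 GOF libraries against 29.4 and 19.9 CPM in WT libraries. H2-Oa thus stood at −0.95 ± 0.28 and H2-Ob at −0.71 ± 0.19 (adjusted p = 0.181 and 0.124, edgeR), and H2-Ob, like H2-Eb2, was highest in WT recipient 1.

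The genes that control class II transcription did not move as a list: of 8, 4 had negative and 4 positive log2 fold changes, with a median of −0.01, and none passed the test. Ciita, the master transactivator, was the lowest of them at 46.1 and 39.3 CPM in JAK1 GOF libraries against 63.1 and 99.9 CPM in WT libraries, a log2 fold change of −0.92 ± 0.23 (adjusted p = 0.163, edgeR). Rfx5, a subunit of the X box binding complex, stood at −0.40 ± 0.15 (adjusted p = 0.297, edgeR) with no overlap between groups.

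Among 8 genes of endosomal processing 4 were negative and none passed; the smallest p-values belonged to Ifi30, the lysosomal thiol reductase, at −0.68 ± 0.20, and Ctss, the cathepsin that trims the invariant chain, at −0.40 ± 0.17 (log2; adjusted p = 0.199 and 0.395, edgeR). Marchf1, the ligase that marks surface class II for degradation, and Cd83, which opposes it, stood side by side at −0.67 ± 0.16 and −0.67 ± 0.15, while the related ligase Marchf8 stood at 0.08 ± 0.12. The list named costimulation has 6 genes and also takes in the inhibitory ligands Cd274 and Pdcd1lg2. All 6 were lower without overlap, Cd86 at −0.77 ± 0.18 and Cd274 at −0.61 ± 0.14, and none passed (adjusted p = 0.082 and 0.0930, edgeR).

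MHC class I, which shows peptides to CD8 T cells, was set beside class II. Of its 11 genes 10 were negative, 4 without overlap, none passed, and the median log2 fold change was −0.22. B2m, the class I light chain, was at 1264 and 1085 CPM in JAK1 GOF libraries against 1191 and 1280 CPM in WT libraries, and H2-K1, a heavy chain, at 1577 and 1324 CPM in JAK1 GOF libraries against 1517 and 1822 CPM in WT libraries; the groups overlapped for both. The class I transactivator Nlrc5 stood at −0.69 ± 0.16 and the peptide pump subunit Tap1 at −0.55 ± 0.14 (log2; adjusted p = 0.0988 and 0.106, edgeR). Of the 9 tested genes among the inputs from interferon gamma and interleukin 4, 7 were negative and none passed. The smallest p-values there were those of the receptor kinases Jak2 (−0.52 ± 0.13) and mouse Jak1 (−0.43 ± 0.13; adjusted p = 0.0998 and 0.206, edgeR). Ifng itself was too low to test, at 0.403 and 0.165 CPM in JAK1 GOF libraries against 0.333 and 0.861 CPM in WT libraries.

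Markers of several, but not all, of the cell types that make class II were lower in the same libraries. All 12 B cell markers were negative (median −0.69, 11 without overlap), 1 of them, Fcer2a, fell past the test at −0.84 ± 0.17 (adjusted p = 0.046, edgeR), and the list summed to 167 and 191 CPM in JAK1 GOF libraries against 278 and 292 CPM in WT libraries. Of 12 markers of conventional dendritic cells 11 were negative (median −1.07), and 3 fell past the test: Flt3, a growth factor receptor of these cells, Itgae, an integrin of one of their subsets, and Ccl22, a chemokine. That list summed to 216 and 217 CPM in JAK1 GOF libraries against 295 and 329 CPM in WT libraries, and no marker of either list was at 0 in any library. All 10 T cell markers were negative with 3 past the test, all 10 markers of monocytes and interstitial macrophages with 1, and all 8 of type 2 innate lymphoid cells with 4. Markers of alveolar macrophages summed to 320 and 345 CPM in JAK1 GOF libraries against 377 and 463 CPM in WT libraries. Of 8 alveolar type 2 markers 6 were negative, none passed, and their median was −0.04. Their sum went the other way, at 14827 and 17066 CPM in JAK1 GOF libraries against 13912 and 14362 CPM in WT libraries. Heart muscle markers, 8 of 8 positive with 4 past the test, summed to 516 and 540 CPM in JAK1 GOF libraries against 240 and 346 CPM in WT libraries, and Xist, a transcript of female cells, fell by 0.89 on the log2 scale (SE 0.13, adjusted p = 0.0158, edgeR), at 62.9 and 73.2 CPM in JAK1 GOF libraries against 122 and 132 CPM in WT libraries. The Y-linked Ddx3y was present in the same 4 libraries, at 57.6 and 67.4 CPM in JAK1 GOF recipients against 74.6 and 58.3 CPM in WT recipients, and Eif2s3y at 18.1 and 51.4 CPM in JAK1 GOF recipients against 60.3 and 48.3 CPM in WT recipients. The sexes of donors and hosts are not given, so cell origin and Xist level cannot be told apart. The part of these lists and of Xist in the class II values was not tested, and in whole lung fewer cells of a type and less RNA per cell cannot be told apart.

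The count of members past the threshold was 4 by DESeq2 (H2-Aa, H2-Eb2, H2-DMa and Cd74), which called 1.76% of all genes, and 9 with no low-count filter, which called 2.81%. It was 4 in a fit with library state as a term (0.964% of all genes called), 8 without WT recipient 1 (5.16%), 2 without WT recipient 2 (1.69%) and 2 without JAK1 GOF recipient 1 (0.465%). In each of these the sign of all 10 members stayed negative.

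The second comparison asks what intrathecal RTX, which per the design removed spinal afferents, did to the family. No member passed the test and the groups overlapped for all 10, while 30.3% of all 17360 genes had groups that did not overlap. Log2 fold changes were −0.35 to 0.06 with a median of −0.01 and SEs of 0.08 to 0.30, and edgeR's adjusted p-values were 0.704 to 0.999. Of all genes 0.311% passed; at an unadjusted p under 0.05 no member was counted on either side, against 5.85% of all genes as higher and 5.63% as lower, and DESeq2 and limma voom also called no member.

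H2-Aa was at 629, 686 and 639 CPM after RTX against 751 and 626 CPM after saline. H2-Ab1 was at 743, 785 and 728 CPM after RTX against 803 and 707 CPM after saline. For both chains the 3 RTX libraries lay close together, at SDs of 30.2 and 29.9 CPM, and the 2 saline libraries lay to either side of them. H2-Eb1 was at 524, 597 and 559 CPM after RTX against 623 and 512 CPM after saline, a log2 fold change of −0.00073 ± 0.10. Cd74 had 1754, 1804 and 1805 CPM after RTX against 1792 and 1670 CPM after saline, with a log2 fold change of 0.06 ± 0.08. All 4 of these abundant genes lay within 1 SE of no change.

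H2-Eb2 was at 2.50, 2.76 and 1.68 CPM after RTX against 3.55 and 2.40 CPM after saline. Its log2 fold change of −0.35 ± 0.30 was the farthest from zero in this comparison and also the least precise (adjusted p = 0.704, edgeR). H2-DMa was at 86.6, 100.5 and 83.8 CPM after RTX against 100.01 and 89.7 CPM after saline, and H2-DMb1 at 118, 122 and 117 CPM after RTX against 130 and 115 CPM after saline. H2-DMb2 was at 29.8, 37.3 and 28.3 CPM after RTX against 34.4 and 29.8 CPM after saline. The 3 H2-M genes stood at −0.05 ± 0.09, −0.02 ± 0.08 and 0.0022 ± 0.13 on the log2 scale. H2-Oa was at 3.98, 3.6 and 3.07 CPM after RTX against 3.82 and 3.08 CPM after saline, and H2-Ob at 13.8, 17 and 11.4 CPM after RTX against 17.8 and 14 CPM after saline. Neither chain of H2-O stood clear of its SE, at 0.06 ± 0.23 for H2-Oa and −0.16 ± 0.18 for H2-Ob.

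Of the transcription control list 4 of 8 genes were positive and none passed; Rfx5 stood at 0.18 ± 0.08 and Creb1, the X2 box factor, at −0.11 ± 0.09. Ciita lay within its SE of no change, at 0.01 ± 0.10 on the log2 scale, with 108, 88.5 and 85.6 CPM after RTX against 97.3 and 91.6 CPM after saline. Of the 11 class I genes 8 were positive, none passed, and B2m and H2-K1 stood at 0.06 ± 0.10 and 0.01 ± 0.09. Tap1 and H2-D1, a heavy chain, stood at 0.10 ± 0.09 and 0.09 ± 0.08. No gene of the endosomal, ligase or costimulation lists passed. The ligands Pdcd1lg2 and Icosl stood at 0.25 ± 0.11 and −0.22 ± 0.10, Marchf1 and Marchf8 at −0.03 ± 0.10 and −0.04 ± 0.07, and Ctss and Sppl2a, a protease of the invariant chain's remnant, at 0.07 ± 0.12 and −0.11 ± 0.08. Ifi30 was at 238, 244 and 232 CPM after RTX against 197 and 204 CPM after saline, without overlap, at 0.26 ± 0.07 (adjusted p = 0.228, edgeR). Among cytokine inputs, Ifng, the inducer of Ciita, was at 0.363, 0.444 and 0.287 CPM after RTX against 0.955 and 0.861 CPM after saline, and Il10, an inhibitory cytokine, at 3.22, 3.01 and 1.93 CPM after RTX against 0.637 and 0.770 CPM after saline. Neither overlapped and neither passed (log2 fold changes −1.30 ± 0.44 and 1.95 ± 0.36, adjusted p = 0.311 and 0.0645, edgeR).

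B cell markers summed to 167 to 226 CPM after RTX against 170 CPM in each saline library, with 10 of 12 positive, and those of conventional dendritic cells to 395 to 468 CPM after RTX against 458 and 459 CPM after saline, with 7 of 12 negative; none passed. Leaving out saline 1 put the median of the members at 0.08 and leaving out saline 2 at −0.11, so its sign rests on which saline library is used. With library state in a model of all 14 libraries the median was −0.24 and no member was called. State and treatment coincide in the intrathecal libraries, so the state term in that fit was estimated from the other experiments alone.

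The third comparison asks the same of subcutaneous RTX, which per the design removed vagal and spinal afferents. Of the 10 members 9 had positive log2 fold changes and 8 did not overlap, being higher after RTX, beside 20.5% of all 17363 genes. In size 3 stood apart from the rest: H2-Eb2, H2-Ob and H2-DMb2 had log2 fold changes of 1.07 ± 0.19, 0.74 ± 0.14 and 0.49 ± 0.10, and the other 7 lay between −0.06 and 0.23. None passed edgeR's test, which called 0% of all genes, and at an unadjusted p under 0.05 these 3 members were counted as higher, as were 8.97% of all genes (1557 genes, with 1596 lower). DESeq2 called these 3 members among 761 genes (4.38% of all genes), and limma voom called none.

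H2-Eb2 was at 8.40, 6.65 and 7.76 CPM after RTX against 3.56 and 3.61 CPM after saline, a 2.10-fold difference (adjusted p = 0.101, edgeR). All 3 RTX libraries lay well above the 2 saline libraries, which nearly coincided. H2-Ob was at 36.9, 29.4 and 27.1 CPM after RTX against 18.5 and 18.2 CPM after saline, a 1.68-fold difference (adjusted p = 0.11, edgeR). H2-DMb2 was at 73.9, 69.3 and 59.4 CPM after RTX against 49.0 and 46.1 CPM after saline, a 1.41-fold difference (adjusted p = 0.120, edgeR). For H2-Eb2, H2-Ob and H2-DMb2 alike, subcutaneous RTX 1 was the highest library. It shared state C with saline 2, and within that pair H2-Eb2 was at 8.40 against 3.61 CPM, H2-Ob at 36.9 against 18.2 CPM and H2-DMb2 at 73.9 against 46.1 CPM.

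The relatives of these genes had smaller log2 fold changes, differences that were not tested. H2-Oa was at 7.76, 6.74 and 7.61 CPM after RTX against 6.50 and 6.08 CPM after saline (log2 fold change 0.21 ± 0.16). H2-DMb1 was at 154, 140 and 153 CPM after RTX against 148 and 161 CPM after saline, overlapping, at −0.06 ± 0.08. H2-DMa was at 129, 127 and 130 CPM after RTX against 122 CPM in each saline library, a small gap with no overlap (0.06 ± 0.06). H2-Eb1 was at 859, 842 and 982 CPM after RTX against 743 and 797 CPM after saline, without overlap but at only 0.20 ± 0.10. In the E beta, H2-M and H2-O subfamilies alike, 1 chain stood well above saline and its relative differed by less.

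H2-Aa was at 992, 975 and 1103 CPM after RTX against 970 and 985 CPM after saline, overlapping, at 0.05 ± 0.09 on the log2 scale. H2-Ab1 was at 1073, 1059 and 1238 CPM after RTX against 928 and 1045 CPM after saline, at 0.17 ± 0.11. Cd74 was at 2460, 2440 and 2694 CPM after RTX against 2009 and 2273 CPM after saline, at 0.23 ± 0.10 (adjusted p = 0.290, edgeR). For H2-Ab1 and Cd74 the nearest RTX and saline libraries were closer to each other than the 2 saline libraries were. H2-Aa, H2-Ab1, H2-Eb1 and Cd74 were each highest in RTX 3.

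**Figure D2:**
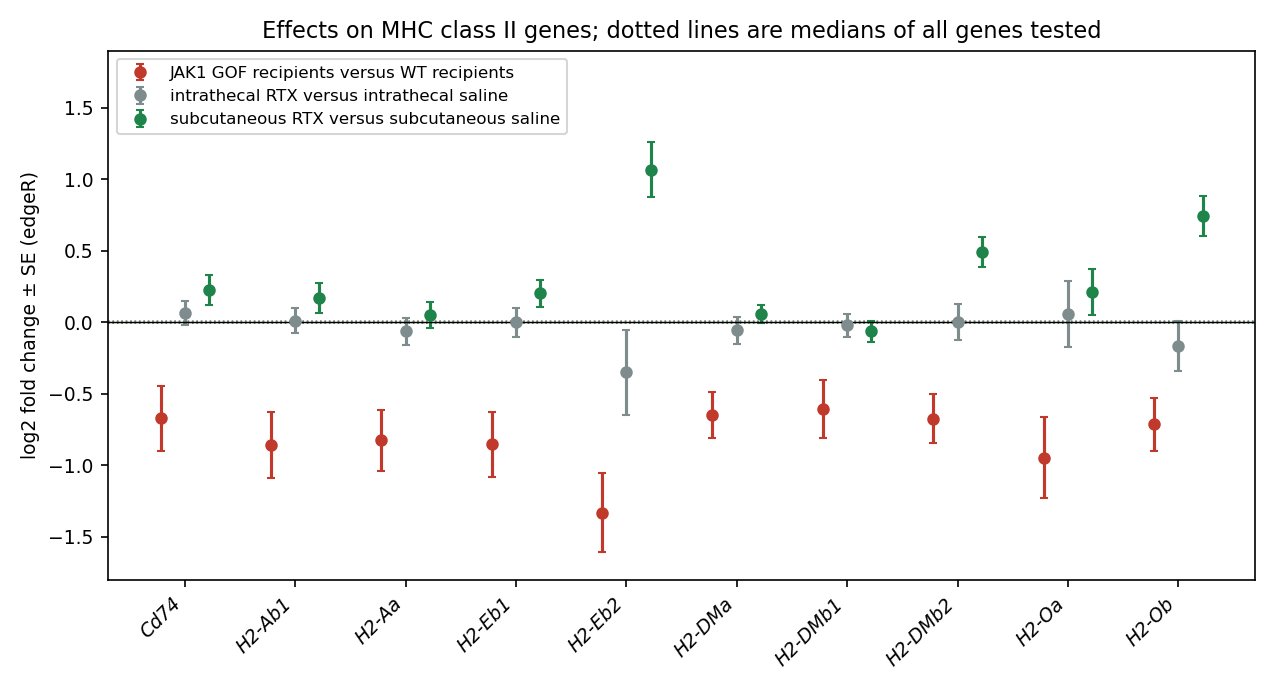
Log2 fold change of each member in the 3 comparisons (points, with SE bars, from edgeR), with dotted lines at the median of all genes tested. JAK1 GOF effects run from −1.33 to −0.61, intrathecal RTX effects lie near 0, and in the subcutaneous comparison H2-Eb2 (1.07), H2-Ob (0.74) and H2-DMb2 (0.49) stand above the other 7 members.

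In the transcription control list 6 of 8 genes were positive and none passed. Ciita was at 115, 121 and 127 CPM after RTX against 86.9 and 112 CPM after saline, 0.27 ± 0.11 on the log2 scale (adjusted p = 0.263, edgeR), and Nfya, a subunit of the Y box factor, and Creb1 stood at 0.27 ± 0.09 and 0.18 ± 0.06. All 8 endosomal genes were positive, the cathepsin Ctsb at 0.34 ± 0.11 and Ctss at 0.33 ± 0.12, and none passed. Marchf1 was at 41.2, 39.6 and 33.4 CPM after RTX against 23.0 and 29.2 CPM after saline (0.53 ± 0.13, adjusted p = 0.137, edgeR), and Cd83 stood at 0.34 ± 0.11. Of the 6 genes of the costimulation list 5 were positive and none passed. The inhibitory ligand Pdcd1lg2 was at 45.4, 38.3 and 37.5 CPM after RTX against 13.4 and 31.5 CPM after saline (0.84 ± 0.38), and Cd40 stood at −0.14 ± 0.11. Class I was mixed, with 6 of 11 positive and a median of 0.05, B2m at −0.06 ± 0.09, H2-K1 at 0.11 ± 0.09, H2-D1 at 0.22 ± 0.10 and the immunoproteasome subunit Psmb10 at −0.27 ± 0.13. Jak1 stood at 0.21 ± 0.09. Irf1, a transcription factor induced by interferon gamma, was at 126, 115 and 117 CPM after RTX against 150 and 147 CPM after saline (−0.33 ± 0.07, adjusted p = 0.119, edgeR), and Ifng overlapped at −0.63 ± 0.69.

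B cell markers were higher in the same libraries as H2-Eb2, H2-Ob and H2-DMb2. All 12 were positive without overlap, with log2 fold changes of 0.63 to 1.42 and a median of 1.11, none passed, and the list summed to 380 to 602 CPM after RTX against 209 and 239 CPM after saline. Markers of conventional dendritic cells were split, 6 positive and 6 negative with a median of −0.02, and summed to 611 to 673 CPM after RTX against 570 and 586 CPM after saline. Of 10 markers of monocytes and interstitial macrophages 8 were positive (median 0.30), all 8 heart muscle markers were negative (median −0.82), summing to 137 to 171 CPM after RTX against 115 and 411 CPM after saline, and the endothelial list had a median of −0.20; none passed. The part of any of these lists in the values of the members was not tested. Without saline 2 edgeR called 871 genes but still no member, 1 gene without saline 1, 12 without RTX 1 and 2 without RTX 2, again no member.

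The proportions inside the family show the same split per library. H2-Eb2 made up 0.450% to 0.557% of E beta message (H2-Eb1 plus H2-Eb2, per kb) after subcutaneous RTX and 0.259% to 0.274% after saline. Shares as high were seen in the chimeras, at 0.401% and 0.536% in JAK1 GOF recipients and 0.444% and 0.886% in WT recipients. In the intrathecal experiment the share was 0.172% to 0.272% after RTX and 0.268% and 0.325% after saline. H2-DMb2 made up 27.1% to 32.2% of H2-M beta message after subcutaneous RTX and 21.6% to 24.2% after saline, while it lay between 18.9% and 22.7% in the libraries of the other 2 experiments. The H2-O chains together were 6.40% to 7.23% of the H2-M chains after subcutaneous RTX and 4.90% to 5.32% after saline. None of these 3 proportions overlapped between subcutaneous RTX and subcutaneous saline. In the chimeras H2-O was 6.66% and 7.26% of H2-M in JAK1 GOF recipients and 6.21% and 10.2% in WT recipients, and after intrathecal RTX it was 3.90% to 4.81%, against 4.31% and 4.79% after saline, so those groups overlapped. Cd74 was 3.80 and 4.25 times H2-Ab1 per kb in JAK1 GOF recipients, 3.47 and 3.52 times in WT recipients, and 3.31 to 3.80 times in the 10 libraries of the RTX experiments. Proportions of H2-DMb2 and H2-DMb1 carry the uncertainty of their shared sequence.

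**Figure D3:**
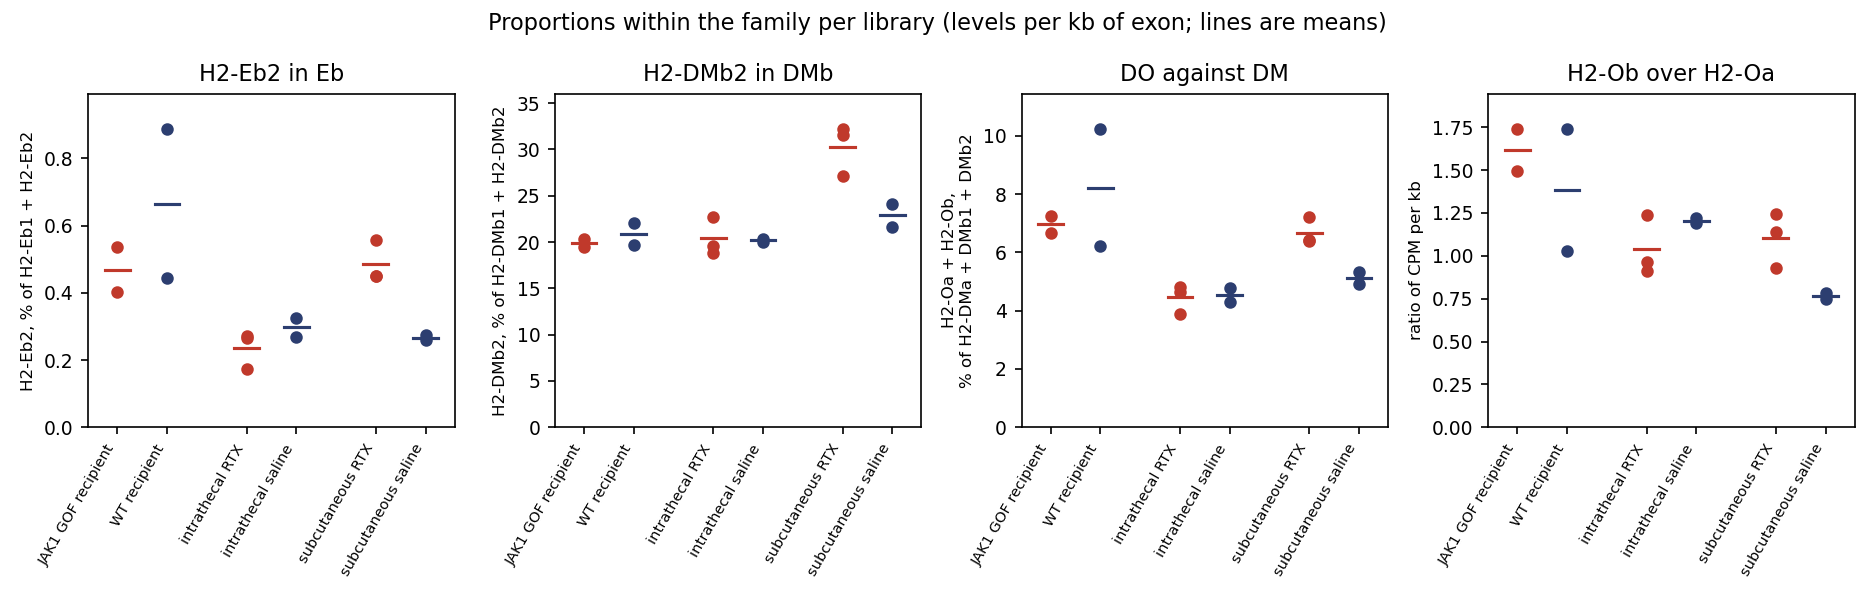
Proportions within the family in every library, from levels per kb of exon: H2-Eb2 as a percent of E beta, H2-DMb2 as a percent of H2-M beta, H2-O as a percent of H2-M, and the ratio of H2-Ob to H2-Oa; points are libraries and lines group means. Subcutaneous RTX libraries lie above subcutaneous saline in each panel, with H2-DMb2 at 27.1% to 32.2% against 21.6% to 24.2%.

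Effects were then set against each other in joint fits, each taken against its own controls. For the subcutaneous RTX effect minus the JAK1 GOF effect all 10 members were positive with an unadjusted p under 0.05, beside 11.4% of all genes, and 3 passed, higher, where 1.78% of all 18074 genes did: H2-Eb2 (log2 difference 2.39 ± 0.32, adjusted p = 0.0177, edgeR), H2-Ob (1.45 ± 0.26, adjusted p = 0.0274) and H2-DMb2 (1.16 ± 0.20, adjusted p = 0.0265). The other 7 differed by 0.54 to 1.15 with adjusted p-values of 0.0541 to 0.221. Of the B cell list 7 of 12 passed in the same direction, and of the conventional dendritic cell list 3 of 12. The 3 calls were lost without JAK1 GOF recipient 1, without JAK1 GOF recipient 2 and without subcutaneous saline 1, where 1, 1 and 3 of all genes were called. Without WT recipient 1 the count was 9 members (4.15% of all genes called in either direction), by DESeq2 9 (7.70%) and with no low-count filter 10 (7.86%).

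For the intrathecal RTX effect minus the subcutaneous RTX effect no member passed by edgeR, where 0.0556% of all 17972 genes did. H2-Eb2 stood at −1.43 ± 0.35 (adjusted p = 0.142), H2-Ob at −0.92 ± 0.25 (0.168) and H2-DMb2 at −0.50 ± 0.18 (0.240). These 3 were also the members with an unadjusted p under 0.05, as were 7.53% of all genes on the lower side, and DESeq2 called 2 members and 1.74% of all genes. For the intrathecal RTX effect minus the JAK1 GOF effect all 10 members were positive, at 0.54 to 1.00, and none passed (0.0333% of all genes did), while 9 had an unadjusted p under 0.05 beside 6.77% of all genes on the higher side, and DESeq2 called 2 members and 1.56% of all genes. In the main setting edgeR called no member in either RTX experiment. With no low-count filter it called 3 in the subcutaneous experiment, as given below. Nominal differences seen in 1 of the RTX experiments were not shown by edgeR to differ between the routes. Doses, days and volumes differed between the routes as well.

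Across all 14 libraries the members fell into a tight set and a looser one. With each gene's log2 CPM centred on the mean of its experiment, H2-Aa, H2-Ab1, H2-Eb1, Cd74, H2-DMa and H2-DMb1 had Pearson's r of 0.91 to 0.99 with each other. H2-Ob and H2-Eb2 had an r of 0.96 with each other, but H2-Ob had only 0.27 with H2-DMb1 and 0.47 with H2-Aa. H2-DMb2 lay between, at 0.81 with H2-Eb2 and 0.84 with H2-DMa, and H2-Oa, the partner of H2-Ob, went with the tight set at 0.91 with H2-Aa and 0.66 with H2-Ob. These values describe 14 libraries that share tables, controls and group differences, and carry no test. Centring left the difference between JAK1 GOF and WT recipients in place, and the chimera libraries weigh most in the tight set. Centred log2 CPM of H2-Aa, for one, ran from −0.68 to 0.62 in the chimeras and from −0.09 to 0.16 in the RTX experiments.

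Against the mean log2 CPM of marker lists, the looser genes had their highest r with B cells and the tight set with conventional dendritic cells. The 6 genes of the tight set had an r of 0.87 to 0.96 with the dendritic cell list and of 0.30 to 0.55 with the B cell list. The centred dendritic cell list also spread most in the chimeras, at −0.49 to 0.58. Its range was −0.13 to 0.07 in the intrathecal and −0.04 to 0.03 in the subcutaneous experiment. H2-Ob, H2-Eb2 and H2-DMb2 had an r of 0.84 to 0.90 with the B cell list and of 0.51 to 0.77 with the dendritic cell list. The centred B cell list spread most in the subcutaneous experiment, at −0.70 to 0.85. Its range was −0.43 to 0.40 in the chimeras and −0.16 to 0.35 in the intrathecal experiment. Among intrathecal libraries H2-Eb2 and H2-Ob were highest in saline 1, at 0.47 and 0.27, where the B cell list was at −0.08. H2-DMb2 was highest in RTX 2, as was the B cell list. The tight set was not particular to dendritic cells: its r was 0.72 to 0.79 with T cells, 0.66 to 0.84 with monocytes and interstitial macrophages and 0.72 to 0.82 with type 2 innate lymphoid cells, all above its r with B cells. Alveolar type 2 markers followed neither, at −0.06 to 0.04 for the tight set and −0.40 to −0.18 for the others, and the endothelial list was negative for these 9 members, at −0.70 to −0.57.

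**Figure D4:**
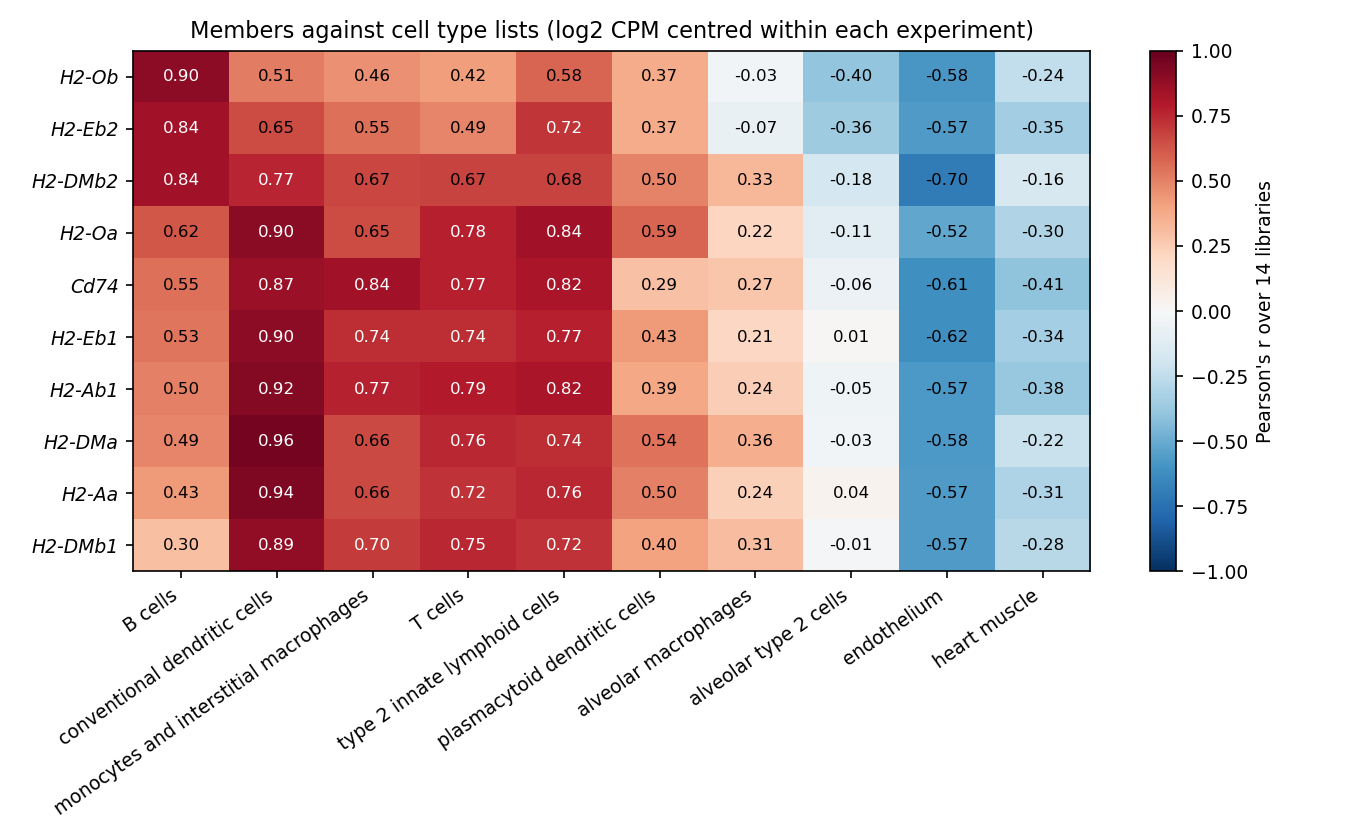
Pearson's r over 14 libraries between each member and the mean of each cell type list (log2 CPM centred within each experiment; red positive, blue negative). H2-Ob, H2-Eb2 and H2-DMb2 are highest with B cells (0.84 to 0.90), and the 7 other members are highest with conventional dendritic cells (0.87 to 0.96).

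The genes most like the mean of H2-Aa, H2-Ab1, H2-Eb1 and Cd74 over the 14 libraries, among 14256 non-member genes compared, were Gm49087 (r = 0.96), Ear2 (0.95), Cd209e (0.94), Cd52 (0.94), Clec7a (0.94), P2rx1 (0.92), Bcl2a1b (0.92) and Slamf8 (0.92). Ear2 codes for an eosinophil-associated ribonuclease, Cd209e and Clec7a for C-type lectins, and Cd52 for a small surface glycoprotein of leukocytes.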

How the data were processed

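RNA was measured in 14 mouse lung libraries. Per the submitters' processing notes, FastQC 0.11.8, Trim Galore 0.6.6, STAR 2.7.5b and Salmon 1.2.1 were used with the genome build GRCm38; the sources used here give neither strand setting nor annotation release. The authors deposited estimated counts per gene, as Salmon gives, of which 24.2% were not whole numbers; they were rounded. Libraries were grouped by title. Each experiment was fitted alone in edgeR 4.0.16 (R 4.3.3): libraries were scaled by TMM, genes were kept by filterByExpr (min.count 10, min.total.count 15), and the quasi-likelihood F test with a robust prior was called at 0.05 after Benjamini-Hochberg adjustment across every gene tested. Differences between effects were contrasts in fits of 9 or 10 libraries. Group values are mean ± SD of CPM and fold changes are ± SE.

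Positions and exon lengths came from GENCODE M21, where 53307 of the 54347 identifiers were found with their version. The length of a gene took in the exons of all its annotated transcripts, so levels and proportions per kb depend on that choice. Floors of 3 counts are 0.123 to 0.165 CPM and cover counting error only, since PCR copies are not independent molecules. Replicates differed by more than sampling noise (chi-square per degree of freedom 8.91 to 21.3), so each library counted once. The fits were tested on simulated counts, with 2-fold changes set in 100 genes and 4-fold changes in another 100 per comparison. Of the 2-fold changes 83, 91 and 84 were recovered in the chimera, intrathecal and subcutaneous settings, and of the 4-fold changes 100, 99 and 99. False calls numbered 20, 18 and 19, a larger part of the calls than the adjusted p threshold stands for. Recovery was counted over all changed genes together. It was not given apart for genes at counts as low as those of H2-Eb2 and H2-Oa, so it does not give the power for these members. Simulated counts need not hold differences between real libraries such as library state.

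The rule for named genes took all members, per pathway list the genes past the threshold or else the 2 with the smallest p, and Ciita, Ctss, Ifng, B2m and H2-K1; of the cell type lists, genes past the threshold were named, while Marchf8 in the chimera comparison was chosen after its values were seen. Some items are not reported here. The members, lists, motifs and tests were chosen with earlier results of these data known. Alternatives were other scalings and filters, DESeq2 1.42.0, limma voom (limma 3.58.1), joint fits, a library state term, a replicate block, an adjusted p of 0.1, H2-DMb1 and H2-DMb2 summed, and leaving out each library.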

Additional observations from a re-analysis of the deposited data

Results flagged for a closer look

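Differences between the subcutaneous RTX effect and the JAK1 GOF effect passed edgeR's test of the difference itself for 3 members, at log2 differences of 2.39 for H2-Eb2, 1.45 for H2-Ob and 1.16 for H2-DMb2. No member was called without JAK1 GOF recipient 1, without JAK1 GOF recipient 2 or without subcutaneous saline 1. The 3 are listed because they passed that test. Opposite signs of the 2 effects were not particular to them. Of the 10 members 9 were positive after subcutaneous RTX and all 10 were negative in JAK1 GOF recipients, in experiments with separate controls. For H2-Eb2 the effects were 1.07 after subcutaneous RTX and −1.33 in JAK1 GOF recipients, for H2-Ob 0.74 and −0.71, and for H2-DMb2 0.49 and −0.67. Summed B cell markers were at 380 to 602 CPM after subcutaneous RTX against 209 and 239 CPM after saline, and at 167 and 191 CPM in JAK1 GOF recipients against 278 and 292 CPM in WT recipients; their part was not tested. Mice, marrow transfer and irradiation differed between the experiments too, and cannot be told apart from the treatments. Xist was at 62.9 to 132 CPM in the chimera libraries and at 0.91 to 5.11 CPM in those of both RTX experiments. The Y-linked Ddx3y was at 57.6 to 85.0 CPM across all 14 libraries. Sexes are not given in the labels, and the part of sex in these differences was not tested. No group had 4 or more libraries, so no library was tested as an outlier.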

How the results depend on the processing

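Of 159 alternative log2 values of members in the JAK1 GOF comparison 127 kept sign and side of the threshold and 32 passed it with the same sign; of 169 in the subcutaneous comparison 158 kept both, 6 passed and 5 turned sign; of 169 in the intrathecal comparison 144 kept both and 25 turned sign. Where no cause is given it was not tested.

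Members called in JAK1 GOF against WT recipients numbered 1 by total counts alone, 9 with no low-count filter, 1 with a filter of 1 CPM in 2 libraries, 4 by DESeq2, 4 with library state in the model and 1 at an adjusted p of 0.1, against 0; leaving out 1 library gave 0 to 8 and a median log2 fold change of −0.997 to −0.574. All genes called, 124, became 807 with no low-count filter, 305 by DESeq2, 79 with no robust prior, 50 in 1 fit of all 14 libraries, 286 at an adjusted p of 0.1 and 83 to 919 with 1 library left out (919 without WT recipient 1, 303 without WT recipient 2). In the intrathecal comparison the median of members was −0.24 with library state in the model, and all genes called, 54, became 655 with no low-count filter, 254 by DESeq2, 34 with no robust prior, 7 in 1 fit of all libraries, 5 with library state in the model, 123 at an adjusted p of 0.1 and 19 to 40 with 1 library left out (19 without RTX 2). In the subcutaneous comparison 3 members were called with no low-count filter and 3 by DESeq2; the median of members was 0.34 with library state in the model and 0.14 to 0.26 with 1 library left out. All genes called there, 0, became 807 with no low-count filter, 761 by DESeq2, 71 in 1 fit of all libraries, 184 with library state in the model, 62 at an adjusted p of 0.1 and 0 to 871 with 1 library left out (871 without saline 2).

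For the subcutaneous effect minus the JAK1 GOF effect the 3 members called (2.87% of all genes called) became 10 with no low-count filter (7.86%), 9 by DESeq2 (7.70%), 9 in 1 fit of all libraries (5.45%), 9 at an adjusted p of 0.1 (8.33%) and 0 to 9 with 1 library left out. For the intrathecal minus the subcutaneous effect DESeq2 called 2 (1.74%). For the intrathecal minus the JAK1 GOF effect 7 were called with no low-count filter (2.99%), 2 by DESeq2 (1.56%) and 0 to 3 with 1 library left out (3 without WT recipient 1, where 279 genes were called).

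Log2 values that turned sign were uncalled ones near 0. In the intrathecal comparison H2-DMb2 was at −0.0015 by DESeq2 size factors, −0.015 by total counts alone, −0.00089 by DESeq2, −0.0086 by limma voom, −0.0028 in 1 fit of all libraries and −0.34 with library state in the model. H2-Ab1 was at −0.0066 by total counts alone and −0.25 with library state in the model, and H2-Eb1 at 0.00071 with no low-count filter and 0.0040 by limma voom. With library state in the model, estimated from the other experiments, H2-Oa was at −0.16, H2-Ob at 0.023 and Cd74 at −0.22. With 1 library left out H2-Aa ranged over −0.18 to 0.064, H2-Ab1 over −0.075 to 0.096, H2-Eb1 over −0.13 to 0.14, H2-DMa over −0.13 to 0.017, H2-DMb1 over −0.10 to 0.062, H2-DMb2 over −0.12 to 0.10, H2-Oa over −0.083 to 0.21 and H2-Ob over −0.32 to 0.011. In the subcutaneous comparison H2-DMb1 was at 0.16 with library state in the model, at 0.088 when summed with H2-DMb2, and at −0.13 to 0.0015 with 1 library left out; H2-Aa ranged over −0.0053 to 0.085.

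Replicate numbers are shared by title only: deviations of same-numbered libraries correlated at −0.00034 in the chimeras, −0.17 and −0.16 in the intrathecal and −0.13 and −0.10 in the subcutaneous experiment. With the replicate block 0 members were called in each of the 3 comparisons, all genes called were 123, 50 and 0, the 3 calls of the subcutaneous minus the JAK1 GOF effect became 0 (0.238% of all genes called), and H2-Aa was at −0.0059 in the subcutaneous comparison. In the intrathecal comparison the SEs of the low-count members H2-Eb2 and H2-Oa were 0.30 and 0.23, wider than those of the other members.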
